A study of Mus musculus with 18 samples.

Results

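The enteroendocrine transcription factors are nuclear proteins that turn a crypt progenitor into a hormone-secreting cell. The set was given by name as 8 genes, Neurog3, Neurod1, Pax4, Pax6, Isl1, Insm1, Nkx2-2 and Rfx6, and its members were chosen as all probe sets annotated with 1 of these symbols alone. On these arrays 7 of the 8 genes, with 15 probe sets, were found among 18193 genes tested (34945 probe sets with 1 symbol). Rfx6 matched no such probe set and was not analysed here. For a gene with several probe sets, the brightest on average across the 18 arrays serves as its main value, and the others are given where they differ.

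The arrays hold total RNA from small-intestinal crypts, the epithelial pockets that contain stem and progenitor cells, of mice aged 2 months. There were 4 arrays of control crypts, 5 of crypts that had lost E2f1, E2f2 and E2f3 together (E2f TKO), 4 of crypts that had lost Myc (Myc KO), and 5 of crypts lacking all 4 of these genes (labelled E2f/Myc QKO and shortened to QKO below). By the labels, deletion used Ah-cre, an inducible Cre under the Cyp1a1 promoter that works in the intestinal epithelium. Crypts were taken 2 days later, so values of the deleted groups describe, where the label holds, a state shortly after deletion. The arrays labelled E2f TKO 2 and 5 go against their label for E2f3, as given below. The labels do not give the control genotype or the inducing agent, and they do not say whether each array is a different mouse, so p-values measure the spread between these arrays. The E2f proteins drive cell cycle genes, and Myc drives growth and ribosome genes.

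In the crypt, Notch signalling between neighbouring cells decides between absorptive and secretory fates, and a small share of secretory progenitors switches on Neurog3, a basic helix-loop-helix factor that is required for the endocrine lineage. Neurog3 is made only for a short time, and the factors it turns on, among them Neurod1, Insm1, Pax4 and Nkx2-2, carry the programme further. Later members, such as Isl1 and Pax6, act in maturing and mature endocrine cells and bind hormone genes. Endocrine cells are rare in crypts, and in RNA of whole crypts more cells of a type and more RNA per cell cannot be told apart, which holds for every difference below.

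The promoters of the 3 members that differed from control, Neurog3, Neurod1 and Isl1, are shown with that of Nkx2-2, which did not pass the test in any comparison, because the deleted factors bind DNA. Each is the stretch of 250 bases before the transcription start (RefSeq, GRCm38.p6), 5′ to 3′ on the gene's strand, in lower case. Capitals mark matches to 4 motifs that were searched on both strands. These are the E2F site in the forms TTCCCGC or TTCGCGC or TTGCCGC or TTGGCGC, the CACGTG E-box bound by Myc, the CAGATG E-box used by Neurog3 and Neurod1, and the CACNAG N-box used by Hes proteins.
Neurog3, chr10:62132840-62133089, plus strand: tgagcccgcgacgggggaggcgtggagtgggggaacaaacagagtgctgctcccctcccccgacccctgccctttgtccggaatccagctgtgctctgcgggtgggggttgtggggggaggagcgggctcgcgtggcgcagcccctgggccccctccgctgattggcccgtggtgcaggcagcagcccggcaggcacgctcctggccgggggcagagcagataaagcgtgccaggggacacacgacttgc
Neurod1, chr2:79456637-79456886, minus strand: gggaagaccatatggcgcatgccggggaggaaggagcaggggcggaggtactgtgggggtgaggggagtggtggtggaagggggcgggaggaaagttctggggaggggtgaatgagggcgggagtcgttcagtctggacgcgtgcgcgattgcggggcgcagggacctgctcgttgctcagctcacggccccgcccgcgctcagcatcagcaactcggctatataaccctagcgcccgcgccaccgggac
Isl1, chr13:116309689-116309938, minus strand: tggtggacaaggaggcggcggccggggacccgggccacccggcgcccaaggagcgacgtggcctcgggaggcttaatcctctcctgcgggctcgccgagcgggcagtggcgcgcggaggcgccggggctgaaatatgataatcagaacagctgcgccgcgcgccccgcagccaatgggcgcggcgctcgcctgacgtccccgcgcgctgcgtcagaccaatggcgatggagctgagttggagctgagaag
Nkx2-2, chr2:147186403-147186652, minus strand: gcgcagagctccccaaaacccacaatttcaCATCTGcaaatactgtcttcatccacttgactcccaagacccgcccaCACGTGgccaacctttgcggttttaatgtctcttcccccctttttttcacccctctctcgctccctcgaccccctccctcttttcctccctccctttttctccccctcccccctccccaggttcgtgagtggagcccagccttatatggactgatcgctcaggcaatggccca
In Neurog3, Neurod1 and Isl1 none of the 4 motifs was found within these 250 bases. Nkx2-2 holds CACGTG 173 bases and CATCTG, the reverse complement of CAGATG, 220 bases before the start. Of all 32851 mouse promoter stretches of this length, 7.89% hold an E2F site, 6.02% CACGTG, 14.4% CAGATG and 36.7% the N-box. The table held 7 promoters for 6 of the 8 members. Of the others, the Pax6 promoter at chr2:105682213-105682462 and the Rfx6 promoter at chr10:51685268-51685517 each hold an N-box, and the Pax6 promoter at chr2:105668646-105668895 holds none of the 4. The G and C content of the stretches is 71.2% for Neurog3, 67.6% for Neurod1, 71.2% for Isl1 and 56.4% for Nkx2-2, against a median of 52.4% over all promoters. A match describes letters and does not show binding.

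Several arrays stand apart, and this bears on the values that follow. In the arrays labelled E2f TKO 2 and 5, E2f3 read 9.35 and 9.10 on the log2 scale, above all control arrays (8.62 to 8.96), and Cyp1a1 read 5.05 and 4.91, against 12.66 to 14.09 in the other 16 arrays. These arrays go against their label for E2f3, so the E2f TKO differences the results turn on are also given without them. The array labelled E2f TKO 1 had the highest mean over the 12 enterocyte markers measured (13.82, against 12.64 to 13.14 in control arrays). It was also the highest over the 8 T cell markers (8.38), though control arrays ran from 6.61 to 8.12. Array medians were 6.15 to 6.16 in control, 6.14 to 6.19 in E2f TKO, 6.22 to 6.26 in Myc KO and 6.23 to 6.26 in QKO arrays. The beta-actin control probes gave a 3′ minus 5′ difference, which grows as RNA breaks down, of 0.31 to 0.44 in control, 0.26 to 0.78 in E2f TKO, 0.18 to 0.22 in Myc KO and 0.19 to 0.31 in QKO arrays. Both measures set Myc KO apart from control without overlap, the medians did so for QKO as well, and their part in the differences below was not tested. The tissue label was checked against 12 markers of crypt epithelium, whose mean signal was 11.64 to 12.34 in all 18 arrays. Xist, an RNA of female cells, read 12.02 to 13.40 in control 3, E2f TKO 1 and 4, and QKO 4 and 5. In the other arrays, all Myc KO arrays among them, it read 6.44 to 6.96. By this RNA the sexes were mixed and not balanced over the groups, and a fit with Xist as a covariate is among the alternatives below.

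No detection calls were used, so low signals may be near background. As a guide, the mean signals of 38 olfactory receptor genes, which the gut is not known for, ran from 3.75 to 6.50 with a median of 4.86. Neurog3 (9.13), Neurod1 (7.37), Nkx2-2 (7.43) and Insm1 (7.30) lay above all 38 as means over 18 arrays. Pax4 (6.33), Pax6 (6.39) and Isl1 (6.49) lay within the top of that range, with 1 of the 38 at or above each, so their differences may understate a change. Signals of different probe sets are not compared as levels of the genes. Some list genes called below also lay within the range of the olfactory receptor genes. Their control and QKO means were 4.30 and 4.85 for Penk, 4.03 and 4.43 for Nefm, and 5.12 and 5.40 for Dll3. For Myt1 they were 6.03 and 6.27, for St18 6.10 and 6.36, and for Gast 6.37 and 6.12. Pam had means of 4.76 in control and 5.23 in E2f TKO. Whether these genes lay above background was not tested.

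Neurog3, Neurod1 and Isl1, which stand at the start, the next step and the mature end of the endocrine programme, were the members that rose, and all 3 rose in QKO crypts. Against control the log2 difference in QKO was 1.04 ± 0.28 (SE) for Neurog3, 0.78 ± 0.09 for Neurod1 and 0.78 ± 0.16 for Isl1. At their main probe sets, Neurod1 and Isl1 rose in E2f TKO crypts and Neurod1 alone passed the test in Myc KO crypts. The Isl1 rise in E2f TKO did not pass without the arrays that go against their label (difference 0.39). It did not pass at the second Isl1 probe set either (0.40). Neurod1 in Myc KO did not pass at its second probe set (0.06). In QKO, Neurog3 and Neurod1 likewise did not pass at their second probe sets (0.72 and 0.31). Insm1, Pax4, Nkx2-2 and the main probe set of Pax6 passed the test in none of the 3 comparisons.

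In numbers, 2 of 7 members were higher in E2f TKO than in control at an adjusted p below 0.05 (limma, Benjamini-Hochberg over all genes), where 1.68% of all 18193 genes were higher. In Myc KO it was 1 of 7, against 3.59% of all genes, and in QKO 3 of 7, against 14.3% of all genes. None was lower by limma in the 3 comparisons, either after adjustment or at an unadjusted p below 0.05 (0 of 7 in each), while 1.22%, 4.72% and 12.6% of all genes were lower after adjustment. At that unadjusted p, 5, 2 and 3 members were higher. The shares of all genes at an unadjusted p were not counted, so unadjusted counts here and below are not read as results. The difference was above 0 for all 7 members in each comparison, while 48.6%, 54.0% and 56.3% of all genes lay above 0, and the median difference of the members was 0.40, 0.23 and 0.13, against -0.00, 0.02 and 0.03 over all genes. Without the arrays labelled E2f TKO 2 and 5, 1 of 7 members was higher in E2f TKO, against 3.35% of all genes, and 5 of 7 differences lay above 0, with Pax6 at -0.01 and Nkx2-2 at -0.14. With the probe sets of a gene averaged, Insm1 lay below 0 in Myc KO (-0.18) and in QKO (-0.01). The 3 comparisons share the same 4 control arrays, so they are not independent of each other. Since the members were chosen with earlier results known, these counts describe the set and test nothing about it.

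**Figure D1:**
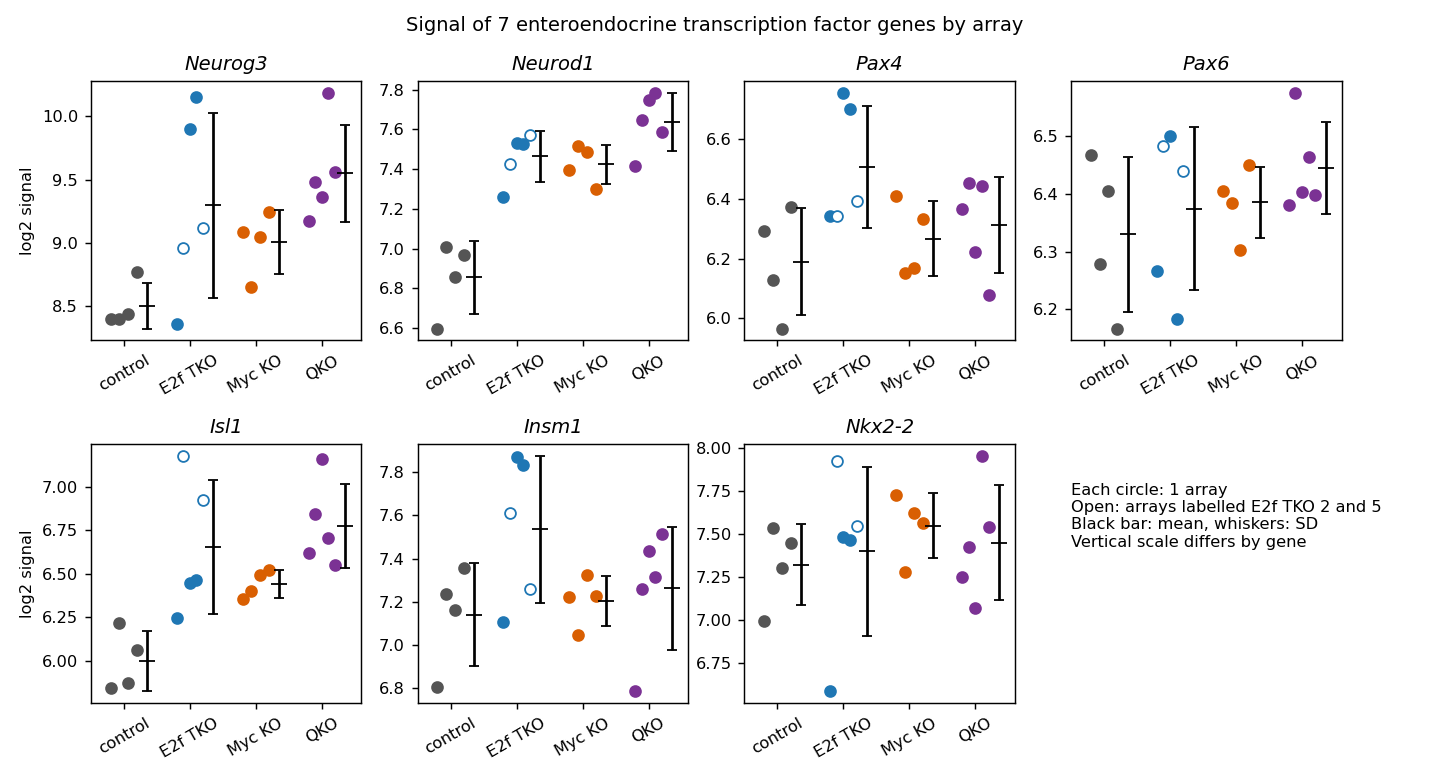
The log2 signal of each of the 7 genes is plotted for every array by group (4 control, 5 E2f TKO, 4 Myc KO and 5 QKO arrays), with the group mean and SD. Neurod1 and Isl1 arrays of the 3 deleted groups all lie above every control array, while for Nkx2-2 and Pax6 the groups overlap.

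Neurog3 read 8.40, 8.40, 8.44 and 8.77 in the 4 control arrays (mean 8.51 ± 0.18, SD). In the E2f TKO arrays it read 8.36, 8.96, 9.90, 10.15 and 9.12 (mean 9.30 ± 0.73). One of these 5 arrays, E2f TKO 1, lay below every control array and the other 4 lay above all of them. In Myc KO arrays Neurog3 read 9.09, 8.66, 9.05 and 9.25 (mean 9.01 ± 0.25), with 3 of 4 arrays above all controls. In QKO arrays it read 9.17, 9.48, 9.36, 10.18 and 9.56 (mean 9.55 ± 0.38). Every QKO array was above every control array, as was the case for 13.2% of all genes. The QKO mean was 2.06-fold that of control (limma adjusted p = 0.0109), and the call held with each of the 18 arrays left out in turn (difference 0.89 to 1.14).

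For E2f TKO the Neurog3 difference of 0.79 ± 0.28 did not pass the test (adjusted p = 0.177, 95% interval 0.20 to 1.38). The spread among the E2f TKO arrays, 0.73, was about as large as the difference. Without the array E2f TKO 1, it was 1.03 with an adjusted p of 0.0198. That array was the lowest of the 5 for Neurog3, Neurod1, Isl1, Insm1 and Nkx2-2, and its enterocyte and T cell marker signals are the values given above. Without the arrays labelled E2f TKO 2 and 5 the difference was 0.96 (adjusted p = 0.0885). For Myc KO it was 0.50 ± 0.30 (adjusted p = 0.317, 95% interval -0.12 to 1.13). A second Neurog3 probe set followed the first across the 18 arrays (r = 0.96) and gave smaller differences, 0.65 in E2f TKO, 0.18 in Myc KO and 0.72 in QKO, none past the test over all probe sets (adjusted p = 0.316, 0.758 and 0.0656). The QKO call of Neurog3 therefore rests on 1 of its 2 probe sets.

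Neurod1, a basic helix-loop-helix factor that Neurog3 turns on, had the smallest standard errors of the members that rose. It read 6.60, 7.01, 6.86 and 6.97 in control arrays (mean 6.86 ± 0.18). In E2f TKO arrays it read 7.26, 7.43, 7.53, 7.53 and 7.57 (mean 7.46 ± 0.13). In Myc KO arrays it read 7.40, 7.52, 7.48 and 7.30 (mean 7.42 ± 0.10), and in QKO arrays 7.41, 7.65, 7.75, 7.78 and 7.59 (mean 7.64 ± 0.15). The lowest array of any deleted group, 7.26, was above the highest control array, 7.01, so none of the 3 groups overlapped with control, as was the case upward for 2.89% of all genes in E2f TKO and 10.6% in Myc KO. The difference was 0.61 ± 0.09 in E2f TKO, 0.57 ± 0.10 in Myc KO and 0.78 ± 0.09 in QKO (limma adjusted p = 0.0012, 0.00283 and 2.31e-05). Each of the 3 calls held with every array left out in turn, and in E2f TKO the difference without arrays 2 and 5 was 0.58 (adjusted p = 0.00483).

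The second Neurod1 probe set gave another pattern for Myc loss. It read 6.53, 7.01, 7.06 and 6.87 in control arrays and 6.84, 6.82, 7.10 and 6.93 in Myc KO arrays, which overlap. Its difference in Myc KO was 0.06 (adjusted p over all probe sets 0.819), against 0.57 at the main probe set. In E2f TKO it read 7.06, 7.49, 7.55, 7.43 and 7.29, a rise of 0.50 (adjusted p = 0.0285), and it was 0.44 higher in E2f TKO than in Myc KO (adjusted p = 0.0171). With E2f TKO 2 and 5 left out these were 0.48 and 0.42, both at the edge of the threshold (adjusted p = 0.04999 and 0.0491). In QKO it read 7.08, 6.98, 7.38, 7.27 and 7.20, a difference of 0.31 that did not pass (adjusted p = 0.0562). The 2 probe sets correlated at r = 0.63 over the 18 arrays. The rise of Neurod1 in E2f TKO thus passed with both probe sets, and the calls in Myc KO and in QKO each rest on 1 of them.

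Isl1, a LIM-homeodomain factor of maturing endocrine cells, read 5.84, 6.22, 5.88 and 6.06 in control arrays (mean 5.999 ± 0.17). In E2f TKO arrays it read 6.24, 7.18, 6.45, 6.47 and 6.92 (mean 6.65 ± 0.39), in Myc KO arrays 6.35, 6.40, 6.49 and 6.52 (mean 6.44 ± 0.08), and in QKO arrays 6.62, 6.84, 7.16, 6.71 and 6.55 (mean 6.78 ± 0.24). At this main probe set all 14 arrays of the deleted groups lay above the highest control array. The shares of all genes without overlap upward are those given for Neurog3 and Neurod1 (2.89% in E2f TKO, 10.6% in Myc KO and 13.2% in QKO). The rise in QKO was 0.78 ± 0.16 (limma adjusted p = 0.00191), and a second probe set (r = 0.85 with the first) rose by 0.43 (adjusted p over all probe sets 0.0317). That probe set did not pass in E2f TKO (0.40, adjusted p = 0.179) or in Myc KO (0.32, adjusted p = 0.181), so the E2f TKO call given next rests on 1 of 2 probe sets. In E2f TKO the rise was 0.65 ± 0.16 (adjusted p = 0.0339). The highest E2f TKO arrays were those labelled 2 and 5, and without both the difference was 0.39 and did not pass (adjusted p = 0.0822). The call was also lost with 1 array left out where that was control 1, 3 or 4, or E2f TKO 2 or 5 (difference 0.52 to 0.67). In Myc KO the groups did not overlap, but the difference of 0.44 ± 0.17 missed the threshold (adjusted p = 0.118). The Myc KO difference passed in the fit without E2f TKO 2 and 5, which changes only the shared estimate of spread (adjusted p = 0.0265).

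**Figure D2:**
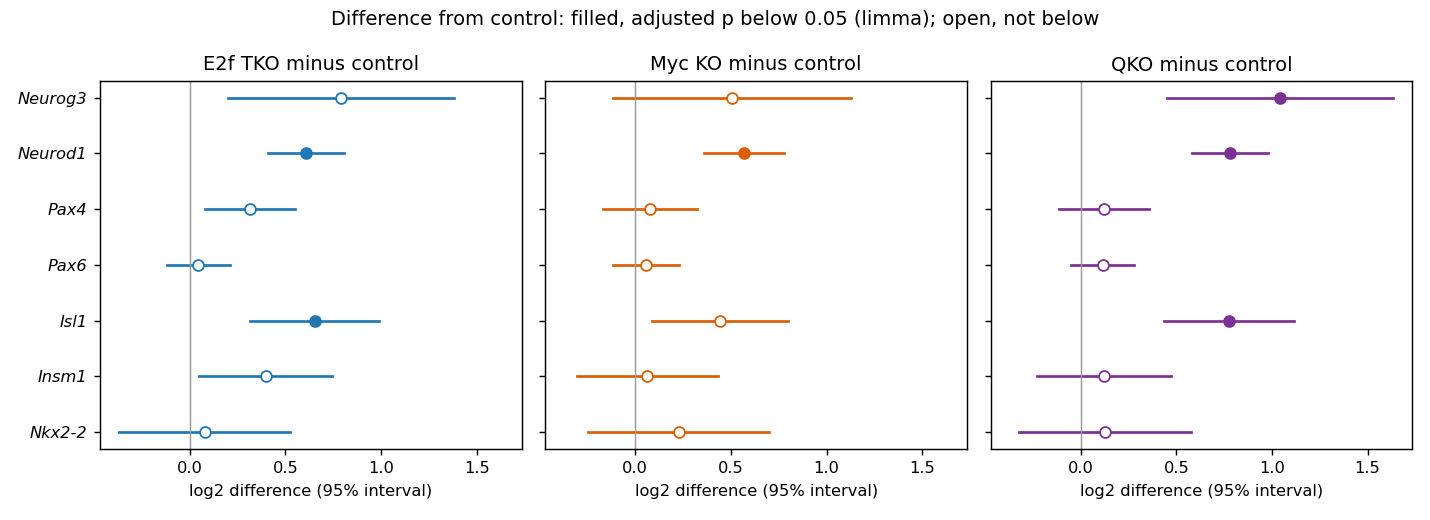
The log2 difference from control is plotted for the 7 genes in E2f TKO, Myc KO and QKO crypts with its 95% interval, filled where the limma adjusted p is below 0.05. Filled points are Neurod1 in all 3 panels, Isl1 in E2f TKO and QKO, and Neurog3 in QKO.

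Insm1, a zinc finger factor of early endocrine cells, read 6.80, 7.24, 7.16 and 7.36 in control arrays and 7.11, 7.61, 7.87, 7.83 and 7.26 in E2f TKO arrays. It read 7.22, 7.04, 7.33 and 7.22 in Myc KO and 6.79, 7.26, 7.44, 7.32 and 7.52 in QKO arrays. All 4 Myc KO arrays lay within the control range, and 2 QKO arrays lay above it and 1 below it. The difference was 0.40 ± 0.17 in E2f TKO (adjusted p = 0.278), 0.06 in Myc KO (adjusted p = 0.866) and 0.12 in QKO (adjusted p = 0.632). The second Insm1 probe set separated the E2f TKO and Myc KO groups. It read 5.26, 5.28, 5.72 and 5.47 in control, 5.35, 5.85, 6.54, 6.18 and 5.74 in E2f TKO, 4.62, 4.95, 5.23 and 5.24 in Myc KO, and 5.15, 5.06, 5.20, 5.52 and 5.50 in QKO arrays. Every E2f TKO array was above every Myc KO array, as was the case for 6.32% of all probe sets, with a difference of 0.92 (adjusted p over all probe sets 0.00355). With E2f TKO 2 and 5 left out it was 1.02 (adjusted p = 0.00613). QKO was 0.65 lower than E2f TKO at this probe set (difference -0.65, adjusted p = 0.0201, and -0.74 with 0.0317 without those arrays), while against control no deleted group passed (differences 0.50, -0.42 and -0.15; adjusted p = 0.233, 0.197 and 0.618). The main Insm1 probe set gave 0.33 for E2f TKO against Myc KO and -0.27 for QKO against E2f TKO, neither past the test (adjusted p = 0.197 and 0.241). Its difference from control in E2f TKO without those arrays was 0.46 (adjusted p = 0.171).

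Pax4, a paired-homeodomain factor of early endocrine progenitors with 1 probe set here, read 6.29, 6.13, 5.97 and 6.37 in control and 6.34, 6.34, 6.75, 6.70 and 6.39 in E2f TKO arrays. It read 6.41, 6.15, 6.17 and 6.33 in Myc KO and 6.37, 6.45, 6.22, 6.44 and 6.08 in QKO arrays. The arrays E2f TKO 3 and 4 were the highest of their group, as they were for Neurog3. The difference from control was 0.32 ± 0.11 in E2f TKO (adjusted p = 0.174), 0.08 in Myc KO (adjusted p = 0.739) and 0.12 in QKO (adjusted p = 0.452), so no change was called, and the 95% interval in QKO was -0.11 to 0.36. Without E2f TKO 2 and 5 the E2f TKO difference was 0.41 (adjusted p = 0.0578).

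Nkx2-2, a homeodomain factor that sets the choice among hormone cell types, read 6.997, 7.54, 7.30 and 7.45 in control and 6.59, 7.92, 7.48, 7.46 and 7.54 in E2f TKO arrays. It read 7.72, 7.28, 7.62 and 7.56 in Myc KO and 7.25, 7.42, 7.07, 7.96 and 7.54 in QKO arrays. The SD within groups was 0.19 to 0.49, and the differences from control were 0.08 in E2f TKO, 0.23 in Myc KO and 0.13 in QKO (adjusted p = 0.931, 0.579 and 0.702). The 95% interval of the QKO difference was -0.32 to 0.57, which includes changes of the size seen for Isl1 at its second probe set. Nkx2-2 and Insm1 lie on chromosome 2 within 20 Mb of E2f1, one of the deleted genes.

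Pax6, a paired-homeodomain factor that binds the glucagon and somatostatin genes, has 5 probe sets, and they disagreed. The main one read 6.47, 6.28, 6.41 and 6.17 in control and 6.38, 6.57, 6.40, 6.46 and 6.40 in QKO arrays, which overlap, with a difference of 0.11 (adjusted p = 0.303). In E2f TKO it differed from control by 0.04 and in Myc KO by 0.06 (adjusted p = 0.884 and 0.729). A second Pax6 probe set read 5.79, 5.65, 6.07 and 5.87 in control and 6.23, 6.10, 6.31, 6.29 and 6.47 in QKO arrays. Each QKO array was above all controls, the closest at 6.10 against 6.07. The same was the case for 13.2% of all genes at their main probe sets. At this second probe set the rise was 0.43 ± 0.09 (adjusted p over all probe sets 0.00188), with 0.32 in E2f TKO and 0.23 in Myc KO (adjusted p = 0.0748 and 0.133). The other 3 Pax6 probe sets passed in no comparison with control (QKO differences -0.00, 0.06 and 0.18). Correlations between pairs of the 5 probe sets over 18 arrays ran from -0.27 to 0.70. Which of them follows Pax6 RNA cannot be told from these values, and all 5 have means below 6.5, within the range of the olfactory receptor genes.

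**Figure D3:**
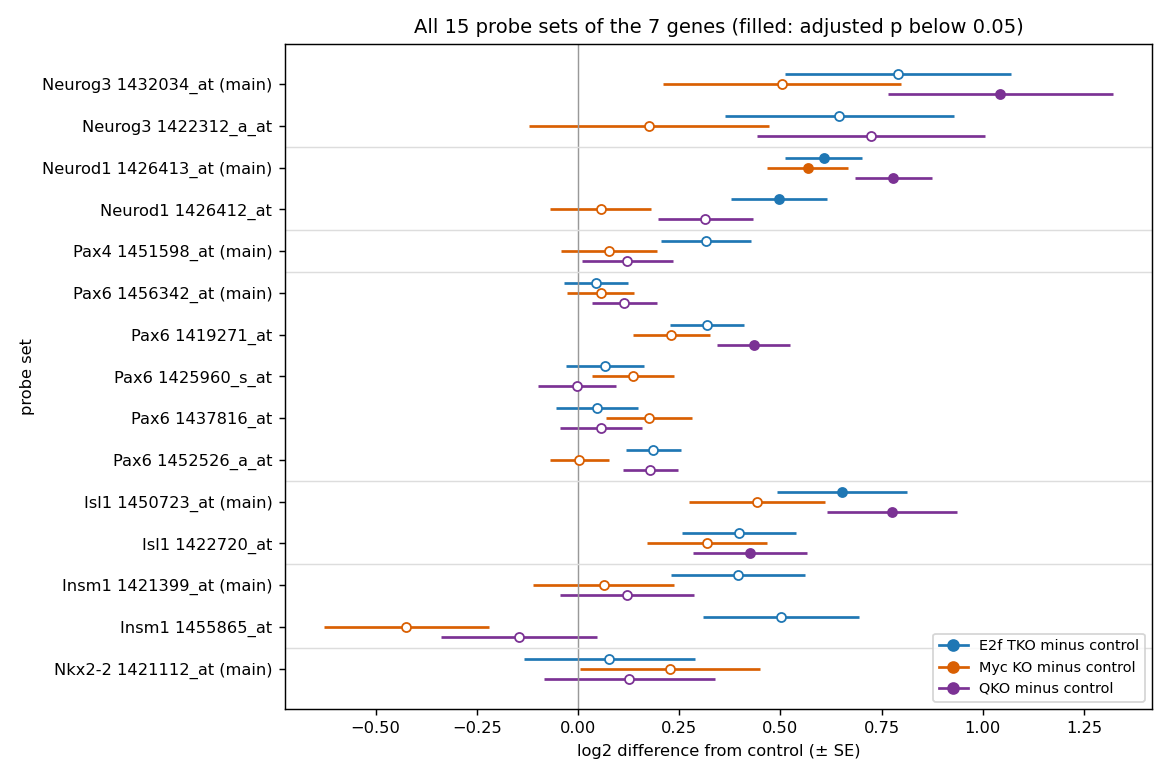
The log2 difference from control with its SE is plotted for all 15 probe sets of the 7 genes, filled where the adjusted p of the plotted test is below 0.05. The probe sets of Neurog3 and Isl1 lie on the same side of 0 in all 3 comparisons, while those of Insm1 part in Myc KO and QKO and only 1 of 5 Pax6 probe sets is filled.

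The deleted groups were then compared with each other, which asks whether E2f loss and Myc loss add to each other in these genes. No member passed the limma test in QKO against E2f TKO (0 of 7, and 0 at an unadjusted p below 0.05), where 17.0% of all genes did. In QKO against Myc KO it was also 0 of 7 (1 unadjusted, Neurod1), against 7.68% of all genes, and in E2f TKO against Myc KO 0 of 7 (1 unadjusted, Pax4), against 14.0%. Adding Myc loss to E2f loss changed Neurog3 by 0.25 (95% interval -0.30 to 0.81), Neurod1 by 0.17 (-0.02 to 0.36) and Isl1 by 0.12 (-0.20 to 0.44). Adding E2f loss to Myc loss changed Neurog3 by 0.54 (-0.05 to 1.13), Neurod1 by 0.21 (0.01 to 0.41) and Isl1 by 0.33 (-0.01 to 0.67). For Isl1 every QKO array was above every Myc KO array, as was the case for 7.22% of all genes, but the adjusted p was 0.251. Without the arrays labelled E2f TKO 2 and 5, Isl1 was 0.39 higher in QKO than in E2f TKO (adjusted p = 0.0491). Of these 6 intervals 5 include 0, and their upper ends run from 0.36 to 1.13, so the data do not show that the second loss added nothing.

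The effect of E2f loss can be set side by side in 2 comparisons that share no array, E2f TKO against control and QKO against Myc KO. It was 0.79 and 0.54 for Neurog3, 0.61 and 0.21 for Neurod1, 0.65 and 0.33 for Isl1, 0.40 and 0.06 for Insm1, 0.32 and 0.05 for Pax4, 0.04 and 0.06 for Pax6, and 0.08 and -0.10 for Nkx2-2. The effect of Myc loss, in Myc KO against control and QKO against E2f TKO, was 0.50 and 0.25 for Neurog3, 0.57 and 0.17 for Neurod1, 0.44 and 0.12 for Isl1, 0.06 and -0.27 for Insm1, 0.08 and -0.19 for Pax4, 0.06 and 0.07 for Pax6, and 0.23 and 0.05 for Nkx2-2. The difference between the paired values is the interaction, which was below 0 for 6 of the 7 members. Over all genes, 53.5% had an interaction above 0. Without E2f TKO 2 and 5, that of Nkx2-2 was above 0 too (0.04). All members were read on the same arrays, so the run of signs is a description and carries no test. Neurod1 had the interaction farthest from 0, -0.40 ± 0.13, with an unadjusted p of 0.00875 and an adjusted p of 0.662 (limma), so no departure from adding up was called. Without E2f TKO 2 and 5 it was -0.37 (adjusted p = 0.449). None of the 7 passed, against 0.0550% of all genes (1 unadjusted, Neurod1).

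Ordered by group mean, Neurog3, Neurod1 and Isl1 all ran from control through Myc KO and E2f TKO to QKO. Without E2f TKO 2 and 5, E2f TKO lay below Myc KO for Isl1 (-0.06), and with array weights QKO lay below E2f TKO for Neurog3 (-0.15). Among the neighbours in this order, the step from control to Myc KO in Neurod1 passed the test, and the other 8 steps of these 3 genes did not. Insm1 and Pax4 ran from control through Myc KO and QKO to E2f TKO, with no step past the test. Pax6 ran from control through E2f TKO and Myc KO to QKO and Nkx2-2 from control through E2f TKO and QKO to Myc KO, also with no step past it. Control had the lowest mean for all 7 members over the 18 arrays, but without E2f TKO 2 and 5 the E2f TKO mean was lower for Pax6 (6.32 against 6.33) and Nkx2-2 (7.18 against 7.32).

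Across single arrays the members were summarised by the mean of their z-scores, each gene scaled over the 18 arrays. The 4 control arrays had means of -1.12, -0.72, -0.99 and -0.65, and the array E2f TKO 1 had -0.94, among the controls. The other 4 E2f TKO arrays read 0.75, 1.01, 0.59 and 0.40. The Myc KO arrays read 0.13, -0.41, -0.09 and 0.12, and the QKO arrays -0.23, 0.66, 0.33, 0.95 and 0.22. Apart from E2f TKO 1, every array of a deleted group was above every control array on this mean, which carries no test here.

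**Figure D4:**
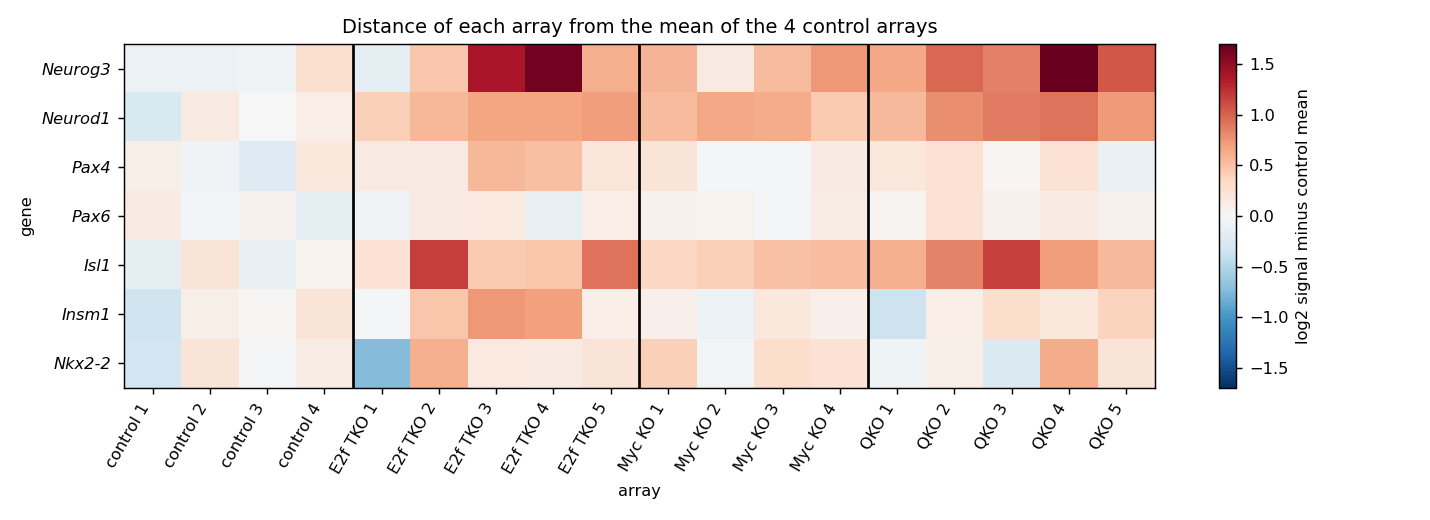
Each cell gives a gene's signal in 1 array as a deviation from that gene's mean over the control arrays, on the log2 scale, for the 18 arrays in group order. Neurog3 is highest in E2f TKO 3 and 4 and QKO 4, and E2f TKO 1 is near the control arrays in most genes.

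The members varied together to different degrees. Over the 18 arrays, which share groups and array-wide effects, the highest correlations were r = 0.81 for Neurod1 with Isl1 and 0.74 for Neurog3 with Neurod1, and the lowest was -0.09 for Pax6 with Insm1. With each group's mean removed, Neurog3 with Insm1 (0.70) and Neurog3 with Pax4 (0.66) were the highest, Neurod1 with Isl1 fell to 0.43 and Neurog3 with Isl1 to -0.09. Neurod1 with Insm1 (0.63) and Neurog3 with Nkx2-2 (0.58) came next, and Pax4 with Insm1 was at 0.22. Pooled over the groups in this way, Neurog3 varied with Insm1 and with Pax4, which varied less with each other. For Neurog3 the SD was 0.73 in E2f TKO, against 0.18, 0.25 and 0.38 in control, Myc KO and QKO arrays. The E2f TKO arrays thus weigh heavily in its values, which were not taken without E2f TKO 1, 2 or 5.

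The genes with the pattern most like the members' mean z-score, by Pearson r over 18 arrays among all 18193 genes, were Elovl5 (r = 0.89), Neurog3 itself and Htr4 (both 0.87), Vwa5b2 (0.86), Sdc1 (0.84), Ccdc149, Ints2, Prom1, Nav1 and Nckipsd (all 0.83). These genes were picked by that likeness, so the group differences of the 10 are a description, and in QKO against control they ran from 0.26 (Nckipsd) to 1.23 (Prom1). The 3 genes most like each member were Itpa, Prpf4 and Mms22l for Neurog3 (r = 0.93, 0.90 and 0.89), Prnp, Mmgt2 and Sdc1 for Neurod1 (0.92, 0.91 and 0.89), and Adcy1, Tmprss2 and Ccl27a for Isl1 (0.89, 0.85 and 0.84). For Insm1 they were Eloa, Pafah1b2 and Mmd (0.86, 0.83 and 0.82), and for Nkx2-2 Wdr48, Fzd7 and Dcp2 (0.91, 0.91 and 0.89). Pax4 had Phgdh, Cfap300 and Rccd1 (0.77, 0.74 and 0.73) and Pax6 had Abcb4, Flt3 and Morn5 (0.78, 0.75 and 0.74). No member was among the 3 genes most like another member.

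Genes around the members in the endocrine programme were taken from lists. Of 21 other endocrine transcription factors measured, 6 rose and none fell in QKO against control (1 lower at an unadjusted p below 0.05), where 14.3% of all genes rose and 12.6% fell. Examples were Mlxipl by 0.85 (limma adjusted p = 0.000198), Mnx1 by 0.97 (adjusted p = 0.00476), and Myt1 and St18, zinc finger factors of endocrine progenitors, by 0.24 and 0.27 (adjusted p = 0.00796 and 0.0192). In Myc KO 1 rose, Hhex by 0.49 (adjusted p = 0.0212), and none fell (0 unadjusted). In E2f TKO none rose (1 unadjusted) and 2 fell, against 1.22% of all genes. They were Nkx6-3, a homeodomain factor of gastric endocrine cells, by a log2 difference of -2.72 (adjusted p = 0.00262) and Pdx1, a homeodomain factor of duodenum and pancreas, by -0.62 (adjusted p = 0.0251), and with E2f TKO 2 and 5 left out by -3.09 and -0.73 (adjusted p = 0.00146 and 0.00805). The median difference of the list was -0.03 in E2f TKO, 0.05 in Myc KO and 0.14 in QKO.

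Upstream of Neurog3, 17 genes of secretory fate choice were measured. None passed in E2f TKO (2 higher and 0 lower unadjusted) or in Myc KO (1 higher and 2 lower unadjusted). In QKO 2 rose and 2 fell, shares near the 14.3% and 12.6% of all genes, so these counts say nothing particular about the list. Hes6, a Hes relative that opposes Hes1, rose by 0.60 (limma adjusted p = 9.37e-05) and the Notch ligand Dll3 by 0.28 (adjusted p = 0.0302). Rbpj, the DNA-binding partner of Notch, fell by 0.42 (adjusted p = 0.00859) and the Notch ligand Jag1 by 0.55 (adjusted p = 0.0174). Atoh1, the factor that all secretory cells pass through, differed by 0.16 in QKO and did not pass (adjusted p = 0.334). The list median was 0.04, 0.03 and 0.14 in E2f TKO, Myc KO and QKO.

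Hormone and secretion genes are the end products of the programme. Of 18 hormone genes, 4 rose in E2f TKO, 1 in Myc KO and 9 in QKO, where 1.68%, 3.59% and 14.3% of all genes did. Gip, the incretin of K cells, rose by 0.95 ± 0.13 in E2f TKO, 0.53 ± 0.13 in Myc KO and 1.41 ± 0.13 in QKO (limma adjusted p = 0.000255, 0.0209 and 1.40e-06). Iapp and Sst rose in E2f TKO (1.64 and 0.63; adjusted p = 0.00174 and 0.0291) and in QKO (1.81 and 1.23; adjusted p = 0.000133 and 2.55e-05). Nts rose in E2f TKO by 1.50 (adjusted p = 0.0289) and Penk in QKO by 0.55 (adjusted p = 0.000409), and 1 hormone gene, Gast, fell in QKO (-0.25, adjusted p = 0.0406). Of 31 genes of granules and secretion, 1 rose in E2f TKO (Pam by 0.47), 1 in Myc KO (Slc18a1 by 0.48) and 18 in QKO, beside the same shares of all genes, among them Pcsk1 by 0.98, Scg3 by 0.52, Cplx2 by 0.33 and Chgb by 0.81 (adjusted p at most 0.000315 for these 4), and none fell (2, 0 and 1 lower unadjusted). In E2f TKO, Myc KO and QKO the median difference was 0.23, 0.21 and 0.54 for the hormone genes and 0.20, 0.15 and 0.31 for the granule genes. Without the arrays labelled E2f TKO 2 and 5, the genes called in E2f TKO numbered 4 of 18 hormone genes and 2 of 31 granule genes, all higher. Of the 21 other factors 3 were called, all lower. In that fit 3.35% of all genes were higher and 3.92% were lower. Gip then rose by 0.88, Iapp by 1.74 and Nts by 2.03 (adjusted p = 0.00171, 0.00367 and 0.00152), and Sst, at 0.57, did not pass (adjusted p = 0.0658). Tph1, of the hormone list and not called over all arrays, passed in that fit (0.51, limma adjusted p = 0.00764). Only Gip, Iapp and Nts of that list were thus called in E2f TKO in both fits.

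**Figure D5:**
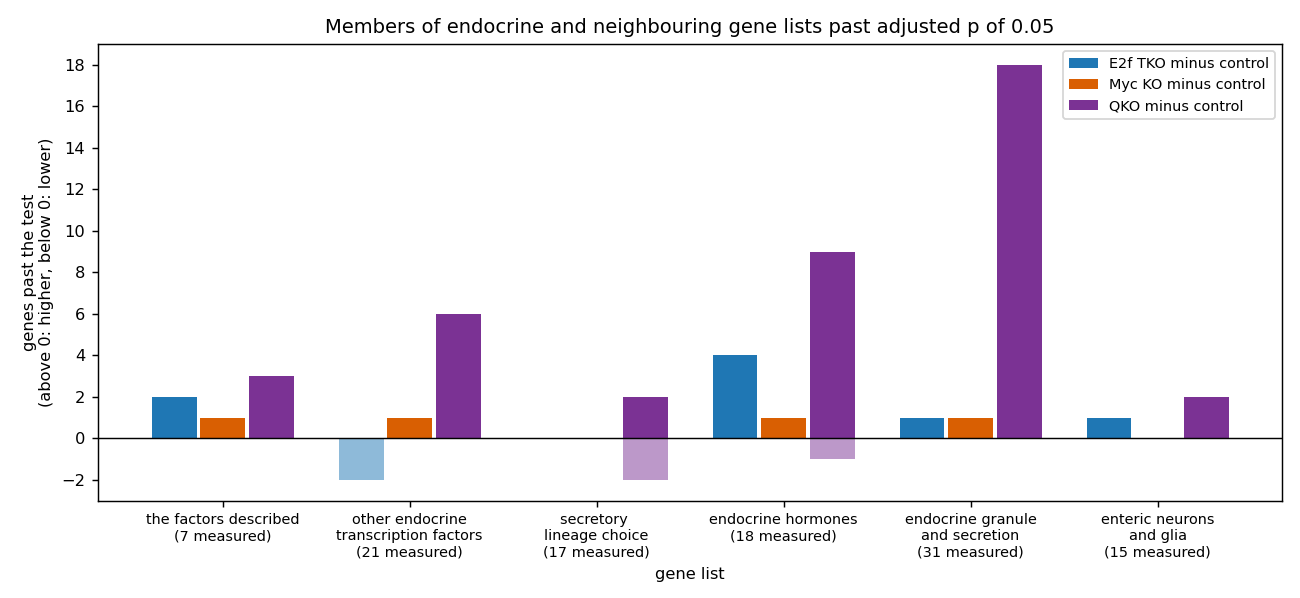
Bars count the genes of each list past an adjusted p of 0.05 against control, higher above 0 and lower below 0, for E2f TKO, Myc KO and QKO. The granule list has 18 of 31 genes higher in QKO and 1 of 31 in E2f TKO and in Myc KO, and the other endocrine factors have 2 lower in E2f TKO.

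Several of these factors are also made by neurons or other cells, so marker lists of such cells were read beside them. Of 15 markers of enteric neurons and glia, 1 rose in E2f TKO, 0 in Myc KO (0 unadjusted, limma) and 2 in QKO, which were S100b, a glial protein, by 0.98 (limma adjusted p = 1.37e-05) and Nefm, a neurofilament, by 0.40 (adjusted p = 0.0266). These 2 of 15 stand beside 14.3% of all genes higher in QKO. In QKO, 13 of the 15 markers lay above 0 and 4 were higher at an unadjusted p below 0.05, among them Nefl (0.36, adjusted p = 0.0720) and Ret (0.20, adjusted p = 0.0907). The mean signal of the list was 5.43 to 5.49 in control, 5.47 to 5.62 in E2f TKO, 5.45 to 5.51 in Myc KO and 5.53 to 5.67 in QKO arrays, so QKO lay above control without overlap. The neuronal markers Phox2a, Hand2 and Elavl4 differed by 0.18, -0.12 and 0.03 in QKO and did not pass (adjusted p = 0.185, 0.280 and 0.836), nor did the glial factor Sox10 (0.08, adjusted p = 0.468). Of 10 tuft cell markers, 9 rose in QKO, with a list mean of 6.93 to 7.34 against 6.46 to 6.63 in control. The part of these cells in the differences of Neurog3, Neurod1 and Isl1 was not tested.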

How the data were processed

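Per the labels' protocols, biotin-labelled total RNA of crypts was hybridised to 18 arrays. The authors deposited log2 signals, which were used unchanged, the scale being inferred from their range (2.29 to 14.81). The normalization is not given in the sources used here. Names of the 45101 probe sets came from GEO's platform annotation, and those with 1 symbol that are not array controls were kept. Groups came from the titles. Tests were limma 3.58.1 (R 4.3.3; lmFit, contrasts.fit, eBayes), 1 two-sided fit of 4 group means. Adjusted p-values (Benjamini-Hochberg, 18193 genes) were called below 0.05. There were 7 comparisons, among them the interaction, the QKO difference from control minus the sum of the E2f TKO and Myc KO differences. Other probe sets were tested in the same way and adjusted over all 34945 probe sets. The script was tested on simulated data. The number of arrays limits the precision.

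The members and gene lists were chosen with earlier results of these data known. The genes named were all members, up to 4 genes of a list with the smallest p past the test in a comparison with control, the 10 genes most like the members' mean and the 3 most like each member. Values named outside this rule (Atoh1, Tph1, Xist and the markers of neurons and glia that did not pass) were chosen after they were seen. Promoters came from RefSeq (GRCm38.p6), matched by symbol for 6 of 8 members. Alternatives were other normalization, filters, probe set rules, fits, a replicate block, array weights, Xist as a covariate and leaving out each array. The fit without E2f TKO 2 and 5 was chosen after seeing the data.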

Additional observations from a re-analysis of the deposited data

Results flagged for a closer look

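In 1 of the 28 sets formed by a gene and a group of 4 or 5 arrays, 1 array lay farther from the others than the 95% limit of Dixon's test for that number of arrays allows, where chance gives about 5% of sets. Neurog3 in control 4 was the highest of its group at 8.77, against 8.40, 8.40 and 8.44 in the other control arrays. Without that array, Neurog3 differed from control by 1.13 in QKO (limma adjusted p = 0.0173), by 0.88 in E2f TKO (adjusted p = 0.217) and by 0.59 in Myc KO (adjusted p = 0.337).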

How the results depend on the processing

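Of 76 counts of members called under alternatives other than leaving out an array, 60 stayed within 1.5 times the reported count. In E2f TKO against control (2 reported) it was 1 among genes above the median (4 members left), 1 when probe sets of a gene were averaged, 1 in a fit of the compared groups alone, 5 with array weights, 1 without E2f TKO 2 and 5 and 1 to 3 with an array left out (3 without E2f TKO 1). In Myc KO (1 reported) it was 0 with averaged probe sets, where Neurod1 gave 0.31, 3 in the fit of the compared groups, 2 with array weights and 2 without E2f TKO 2 and 5. In QKO against E2f TKO (0 reported) it was 1 with averaged probe sets (Insm1, -0.46), with every probe set tested, with array weights (Pax4, -0.32) and without E2f TKO 2 and 5 (Isl1, 0.39). In E2f TKO against Myc KO (0 reported) it was 1 with averaged probe sets (Insm1, 0.63), 2 with every probe set tested (Neurod1 and Insm1) and 2 with array weights (Pax4 and Insm1). In QKO against control it was 3 with each array left out, and 4 with every probe set tested, Pax6 being the added gene. The number of all genes called moved as well. With an array left out it ran from 277 to 830 in E2f TKO, 640 to 2227 in Myc KO and 3636 to 5713 in QKO against control. In E2f TKO without arrays 2 and 5 it was 1322. The moved counts of members are therefore no result about the set, and the causes of these moves were not tested.

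Differences that changed sign were small, and those of the reported fit had not passed the test. Against control, Insm1 was -0.18 in Myc KO and -0.012 in QKO with averaged probe sets, and without E2f TKO 2 and 5 Pax6 was -0.013 and Nkx2-2 -0.14 in E2f TKO. In QKO against E2f TKO, Pax6 was -0.012 after quantile normalization, Neurod1 -0.0051 with averaged probe sets, and Neurog3 -0.15 and Nkx2-2 -0.084 with array weights. In QKO against Myc KO, Pax4 was -0.0034 after quantile normalization. In E2f TKO against Myc KO, Pax6 was 0.018 after quantile normalization, 0.012 with averaged probe sets, 0.029 with array weights and 0.017 with Xist as a covariate, and Isl1 was -0.056 without E2f TKO 2 and 5. The interaction was -0.018, -0.097 and -0.028 for Pax6 (quantile normalization, mean of probe sets, array weights) and 0.044 for Nkx2-2 without E2f TKO 2 and 5. With an array left out, 19 of 882 differences changed sign. In E2f TKO against control, Pax6 ran from -0.0094 to 0.093 and Nkx2-2 from -0.053 to 0.28. Insm1 ran from -0.049 to 0.14 in Myc KO against control and from -0.0050 to 0.18 in QKO against Myc KO. Nkx2-2 ran from 0.00 to 0.22 in QKO against control and from -0.15 to 0.18 in QKO against E2f TKO. In E2f TKO against Myc KO, Neurod1 ran from -0.0020 to 0.091, Pax6 from -0.042 to 0.037 and Nkx2-2 from -0.28 to 0.054, and the Pax6 interaction ran from -0.034 to 0.068.

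Whether the replicate numbers pair the arrays is not settled by these values. Same-numbered pairs of different groups correlated at -0.16 to 0.35 (median 0.15, 13 of 25 above 0.1). The 96 other pairs between groups correlated at -0.62 to 0.43 (median -0.04). In 19 of 50 cases an array was most like its own number. With the replicate block, the counts of members called were 2 in E2f TKO, 1 in Myc KO and 3 in QKO against control, as without it. Without detection calls, whether Pax4, Pax6 and Isl1 lay above background was not tested.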
